A study of Mus musculus with 11 samples.

Results

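The epithelium of wild-type (WT) mice was compared along the bowel, ileum against colon, without any gene deletion. The libraries were chosen by the genotype and tissue in their labels, which gave 5 of the 11 libraries of the series: 2 of WT ileum and 3 of WT colon. The other 6 libraries, 3 of IEC-OGT KO ileum and 3 of IEC-OGT KO colon, are given only where the WT comparison is set beside them. IEC-OGT KO mice lack *Ogt*, the enzyme that attaches N-acetylglucosamine to serine and threonine residues of proteins inside the cell, in their intestinal epithelial cells (IECs). There a floxed *Ogt* allele on the C57BL/6 background was deleted by Cre recombinase under the *Villin* promoter, which is active in the epithelium of both bowel segments. All mice were 10 weeks old, and the study used male mice unless it said otherwise. The alleles that the WT mice carried besides an intact *Ogt* are not given in the sources used here. IECs were shaken off the tissue in a solution with EDTA. RNA of several preparations was pooled for library construction, and neither the number of mice behind a library nor whether ileum and colon came from the same mice is stated.

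The deposited values were 1 log2 FPKM (fragments scaled to transcript length and to all mapped fragments) for each gene, genotype and tissue, made by the authors from the libraries of a group. Depth and the spread between libraries are therefore unknown here. No value below has an error or a test, and the differences describe these libraries with no replicate check. Ileum and colon stood in separate tables that were normalized separately. A difference is log2 FPKM in ileum minus log2 FPKM in colon, minus the median of that difference over the 11846 genes listed above 0 in both WT tissues, which was -0.08. A gene was counted as apart when the tissues differed by at least 4-fold on this centred scale.

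The ileum is the last stretch of the small bowel. Its enterocytes take up fat, sugar, amino acids, bile acids and vitamin B12, and Paneth cells at its crypt bases secrete antimicrobial peptides. The colon has no villi and in the mouse few or no Paneth cells; its surface cells take up salt, water and short-chain fatty acids under a thick mucus layer that holds a dense flora.

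Most genes stood close in the WT tissues. Of the 11846 genes, 82.9% lay within 2-fold, and the median absolute log2 difference was 0.42. At least 4-fold higher in WT ileum were 211 genes (1.78%), and at least 4-fold lower were 372 genes (3.14%), together 583 genes (4.92%). Every count of WT list members at least 4-fold apart below is to be read beside these shares. The counts at 16-fold were 63 genes higher (0.532%) and 45 genes lower (0.380%) in WT ileum. The split depended on the centring. Genes of cytosolic ribosomal proteins were themselves higher in WT ileum, with a median log2 difference of 0.42, and centring on them left 152 genes higher and 614 lower, so that the genes higher in ileum made up 19.8% of those apart, against 36.2% with the centring used here. All differences below are relative to the median of all genes; under the ribosomal centring each is lower by 0.42, so a list or gene between 0 and 0.42 changes its side. In tissue preparations, fewer cells of a type and less RNA per cell cannot be told apart.

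**Figure D1:**
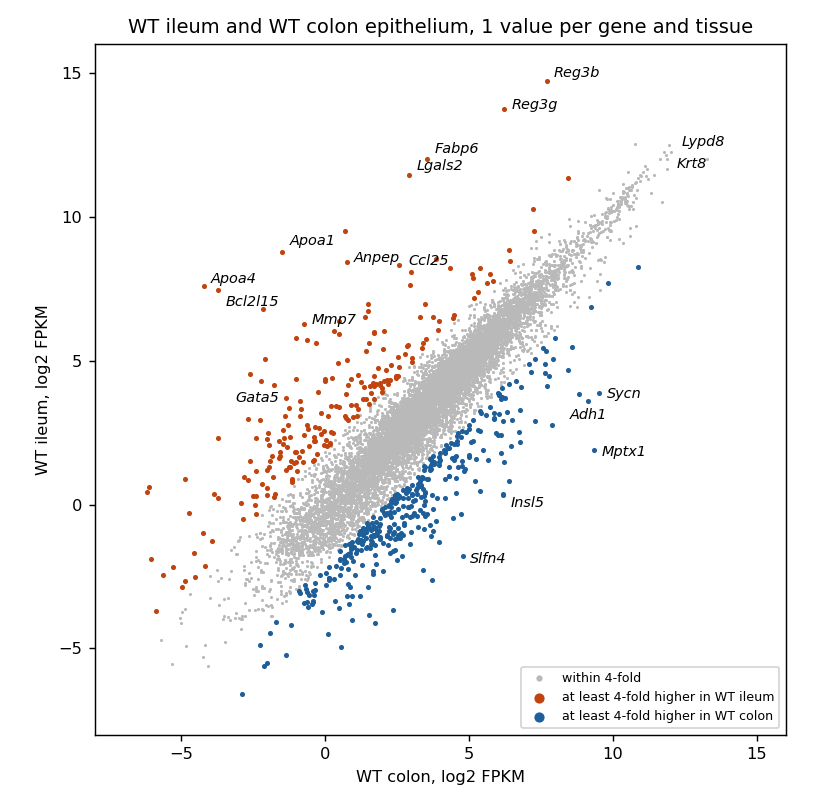
The level of each gene in WT ileum (vertical axis, log2 FPKM) is plotted against its level in WT colon (horizontal axis, log2 FPKM), 1 dot per gene; genes at least 4-fold higher in WT ileum are red and genes at least 4-fold higher in WT colon are blue. The 211 red genes include *Reg3b*, *Reg3g*, *Fabp6* and *Apoa4*, and the 372 blue genes include *Mptx1*, *Sycn* and *Insl5*.

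The markers of the labelled segments gave a divided picture. *Fabp6*, the ileal bile acid binding protein, stood at 4153 FPKM in WT ileum, against 11.6 FPKM in WT colon. *Apoa4*, an apolipoprotein of chylomicrons, stood at 191 FPKM in WT ileum and 0.0537 FPKM in WT colon. The Paneth cell genes *Lyz1* (lysozyme) and *Mmp7* (the protease that activates defensins) stood at 55.3 and 77.2 FPKM in WT ileum, against 0.493 and 0.603 FPKM in WT colon. These 4 genes thus followed the label, the least of them, *Lyz1*, by 119-fold. Other genes of small-bowel enterocytes were near 0 in the WT ileum: lactase (*Lct*) had 0.0257 FPKM and the glucose transporter *Slc2a2* 0.0928 FPKM, both listed in the ileum table alone, and the small-bowel factor *Gata4* had 0.521 FPKM, against 0.266 FPKM in WT colon. Levels of these genes along the small bowel were not at hand, so their low values do not by themselves count against an ileal label. *Slc10a2*, the apical bile acid transporter of the ileum, had 37.8 FPKM in WT ileum and 20.7 FPKM in WT colon, less than 2-fold apart. The hormone gene *Fgf15* had 1.80 FPKM in WT ileum and was listed at 0 in WT colon. *Defa5*, a Paneth cell defensin, had 2.91 FPKM in WT ileum and no row of its own in the colon table.

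Genes known for colonic surface cells were high in both WT tissues. The water channel *Aqp8* had 70.5 FPKM in WT ileum and 182 FPKM in WT colon, the chloride-bicarbonate exchanger *Slc26a3* 117 FPKM in WT ileum and 265 FPKM in WT colon, and the carbonic anhydrase *Car4* 165 FPKM in WT ileum and 326 FPKM in WT colon. *Cyp2c55*, a cytochrome P450 of the large bowel, had 545 FPKM in WT ileum and 1314 FPKM in WT colon. All 4 were lower in WT ileum by less than 4-fold. *Car1*, which codes for another carbonic anhydrase of the large bowel, had 5914 FPKM in WT ileum, and its name has no row in the colon table. The Hox genes of the hindgut end, in contrast, were listed in the colon table alone: *Hoxb13* had 172 FPKM and *Hoxd13* 17.1 FPKM in WT colon. In the ileum of IEC-OGT KO mice, *Car1* had 170.1 FPKM, *Aqp8* 0.257 FPKM, *Cyp2c55* 39.9 FPKM, *Lct* 3.12 FPKM, *Slc2a2* 24.6 FPKM and *Gata4* 9.38 FPKM. The column of WT ileum thus held ileal and colonic surface genes side by side, and every difference below is between the columns as labelled.

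**Figure D2:**
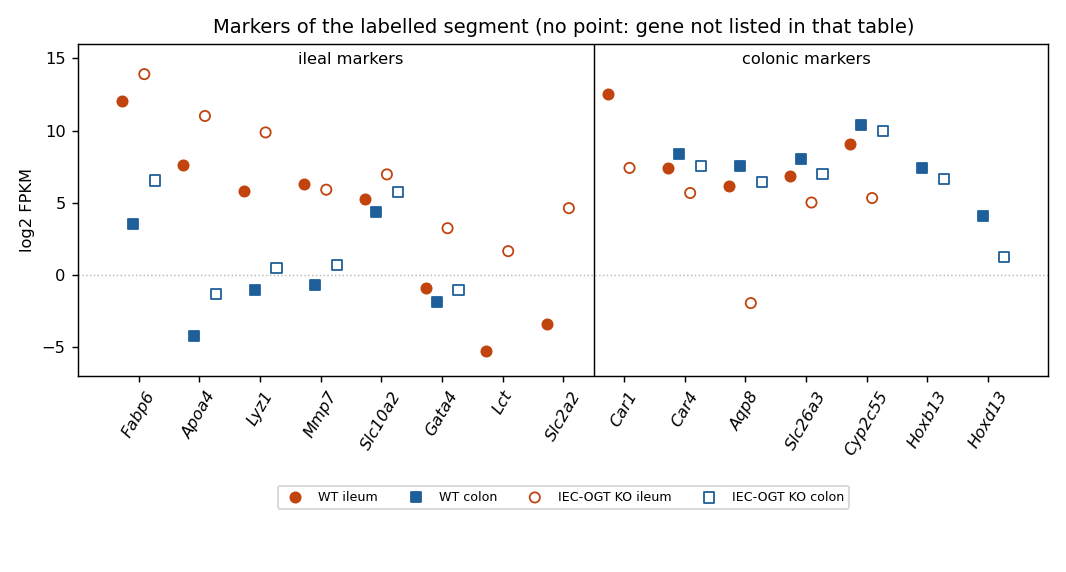
Each point is the log2 FPKM of a marker in WT ileum (filled red circle), WT colon (filled blue square), IEC-OGT KO ileum (open red circle) or IEC-OGT KO colon (open blue square), with 8 small-bowel genes taken as ileal markers left of the line and 7 colonic markers right of it; a gene that a table does not list has no point there. *Fabp6*, *Apoa4*, *Lyz1* and *Mmp7* lie far apart between the WT tissues, while *Car4*, *Aqp8*, *Slc26a3* and *Cyp2c55* lie close.

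Markers of epithelium of both segments had like levels. *Epcam* had 1235 FPKM in WT ileum and 1097 FPKM in WT colon, the keratin gene *Krt8* 4096 FPKM in WT ileum and 3795 FPKM in WT colon. Villin (*Vil1*), *Krt20* and the cadherin *Cdh17* had 369.6, 630.3 and 446 FPKM in WT ileum, against 288.0, 699 and 302 FPKM in WT colon. The locus that holds *Lgals4* had 3214 FPKM in WT ileum and 3717 FPKM in WT colon. Of the 13 genes of this list in both tables, 1 stood at least 4-fold apart: *Lgals2*, which codes for galectin-2, with 2778 FPKM in WT ileum, against 7.52 FPKM in WT colon (391-fold).

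Among the single named genes with at least 10 FPKM in the higher tissue, the 15 most in excess in WT ileum belonged largely to fat uptake, the brush border and defence. They were led by *Apoa4*, with a log2 difference of 11.88, and *Bcl2l15*, a member of the BCL2 family, with 177 FPKM in WT ileum and 0.0764 FPKM in WT colon (11.26). *Apoa1*, the main protein of high-density lipoprotein, had 434 FPKM in WT ileum and 0.356 FPKM in WT colon (10.33). A fold against a level under 1 FPKM rests on a low value of unknown depth. Above that level in WT colon were *Defa24*, a Paneth cell defensin (719 FPKM in WT ileum, 1.61 FPKM in WT colon), *Fabp6* (377-fold), *Lgals2*, the aminopeptidase gene *Anpep* (343 FPKM in WT ileum, 1.67 FPKM in WT colon, 217-fold), *Reg3g* and *Reg3b*. The remaining 6 were *Defa20*, *Npc1l1*, *Myrfl*, *Mmp7*, *Lyz1* and *Gata5*, with log2 differences between 6.62 for *Gata5* and 9.02 for *Defa20*.

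On the other side, the 15 genes most in excess in WT colon were led by *Mptx1*, which codes for a mucosal pentraxin, with 3.68 FPKM in WT ileum and 648 FPKM in WT colon (167-fold lower in WT ileum). *Insl5*, a hormone of colonic endocrine cells, had 1.27 FPKM in WT ileum and 72.5 FPKM in WT colon. *Sycn*, a protein of secretory granules, had 14.7 FPKM in WT ileum and 734 FPKM in WT colon, and *Adh1*, an alcohol dehydrogenase, 12 FPKM in WT ileum and 560.3 FPKM in WT colon. *Ggh*, which trims folate side chains, had 6.87 FPKM in WT ileum and 237 FPKM in WT colon, and *Wfdc2*, a secreted protein with a protease-inhibitor fold, 14.4 FPKM in WT ileum and 446 FPKM in WT colon. The somatostatin receptor gene *Sstr1* had 0.406 FPKM in WT ileum and 15.5 FPKM in WT colon. The other 8 were *Slfn4*, *Ttll6*, *Cyp2d34*, *Cyp2d10*, *Sval1*, *Nt5e*, *Clec2g* and *Anxa8*, with log2 differences between -6.48 for *Slfn4* and -4.82 for *Anxa8*.

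A further 12 genes were listed at 0 in WT ileum and 8 at 0 in WT colon. The highest of those at 0 in WT ileum were *Ptprm*, a receptor phosphatase, with 4.17 FPKM in WT colon, *Snhg9*, a host gene of small nucleolar RNAs, with 4.03 FPKM, and *Ccdc142* with 1.39 FPKM. Besides *Fgf15*, the highest of those at 0 in WT colon were *Erc2*, *Cdkn2a*, *Hemt1* and *S100a9*, each under 1 FPKM in WT ileum.

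Genes of fat absorption and chylomicron assembly stood higher in WT ileum as a group: 8 of 23 were at least 4-fold higher and 1 was at least 4-fold lower, where 1.78% and 3.14% of all genes were, and the median log2 difference was 1.59 against 0 for all genes. *Apoa1* (chr9:46228580-46230466, mm10) and *Apoa4* (chr9:46240696-46243459) are neighbours on chromosome 9. *Mttp*, which loads lipid onto apolipoprotein B, had 52.3 FPKM in WT ileum and 0.651 FPKM in WT colon. *Npc1l1*, the cholesterol uptake protein of the brush border, had 23.1 FPKM in WT ileum and 0.162 FPKM in WT colon. *Fabp1*, the liver-type fatty acid binding protein, had 1.83 FPKM in WT ileum and 0.0344 FPKM in WT colon. Its intestinal relative *Fabp2* differed by a log2 value of -0.03, with 576 FPKM in WT ileum and 622 FPKM in WT colon, and the cofactor of pancreatic lipase *Clps* by -0.09. The member at least 4-fold lower in WT ileum was *Scarb1*, a receptor for high-density lipoprotein, with 1.59 FPKM in WT ileum and 10.1 FPKM in WT colon. This member and *Mogat2*, *Abcg5*, *Slc36a1* and *Slc6a14* below fall outside the rule for named genes and were chosen after their values were seen. *Mogat2*, which rebuilds triglyceride from monoglyceride, had 42.8 FPKM in WT ileum and 4.0 FPKM in WT colon.

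The products of *Abcg5* and *Abcg8* together form the pump that returns plant sterols and cholesterol to the gut lumen. The genes lie on opposite strands of chromosome 17, and their first parts overlap in GENCODE (chr17:84658234-84683011, minus strand, and chr17:84676302-84700333, plus strand). *Abcg5* had 32.2 FPKM in WT ileum and 1.67 FPKM in WT colon, and *Abcg8* 12.2 FPKM in WT ileum and 0.547 FPKM in WT colon, with log2 differences of 4.35 and 4.56. The promoter of *Abcg8*, from 250 bases before to 50 bases after the gene start in RefSeq (GRCm38.p6, chr17:84682871-84683170, plus strand), is shown because both genes stood higher in WT ileum by like amounts and their windows share 209 bases of sequence. The RefSeq start of *Abcg8* lies further along the chromosome than its GENCODE start, which this window does not cover. Capitals mark the 3 matches to AGATAA, the motif of GATA factors, on either strand.
Abcg8: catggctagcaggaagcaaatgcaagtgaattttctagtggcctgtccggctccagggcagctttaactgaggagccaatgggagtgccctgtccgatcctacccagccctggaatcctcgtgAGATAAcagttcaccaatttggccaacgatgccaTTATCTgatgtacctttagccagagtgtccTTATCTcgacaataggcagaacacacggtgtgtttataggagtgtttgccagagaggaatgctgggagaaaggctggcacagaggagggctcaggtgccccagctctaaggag

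Sugar digestion and uptake differed less. Of 12 genes 2 were at least 4-fold higher in WT ileum and 0 were lower, with a median log2 difference of 0.82. *Sis*, the sucrase-isomaltase of the brush border, had 61.0 FPKM in WT ileum and 1.40 FPKM in WT colon, and *Treh*, the trehalase, 3.23 FPKM in WT ileum and 0.339 FPKM in WT colon. The maltase gene *Mgam* had 241 FPKM in WT ileum and 126 FPKM in WT colon. *Dak*, which phosphorylates the triose of fructose breakdown, and *Fbp1*, of glucose synthesis, had log2 differences of 1.92 and 1.68. The fructose transporter *Slc2a5* was low in both, at 1.83 FPKM in WT ileum and 1.40 FPKM in WT colon. A further 6 genes of the list stood in the ileum table alone, each under 1 FPKM in WT ileum.

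Brush border peptidases and amino acid transporters were at least 4-fold higher in WT ileum in 10 of 23 genes and lower in 2, with a median log2 difference of 1.76. Besides *Anpep*, the aminopeptidase gene *Enpep* had 126 FPKM in WT ileum and 2.79 FPKM in WT colon, and the peptidase gene *Naaladl1* 296 FPKM in WT ileum and 20.0 FPKM in WT colon. *Ggt1*, which splits glutathione, had 20.4 FPKM in WT ileum and 1.84 FPKM in WT colon. Among transporters, *Slc6a19* for neutral amino acids had 10.3 FPKM in WT ileum and 0.420 FPKM in WT colon, and *Slc7a9* for cystine and basic amino acids 61.8 FPKM in WT ileum and 3.20 FPKM in WT colon. The meprin subunit *Mep1a* had 138 FPKM in WT ileum and 144 FPKM in WT colon. The 2 transporters at least 4-fold lower in WT ileum were *Slc36a1* (4.32 FPKM in WT ileum, 24.1 FPKM in WT colon) and *Slc6a14* (44.3 FPKM in WT ileum, 385 FPKM in WT colon).

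Ileal uptake of bile acids and cobalamin (vitamin B12) was at least 4-fold higher in WT ileum in 5 of 10 genes and lower in 0, with a median log2 difference of 1.96. *Slc51a* and *Slc51b* code for the 2 subunits of the basolateral bile acid exporter. *Slc51a* had 256.0 FPKM in WT ileum and 53.1 FPKM in WT colon, and *Slc51b* 267 FPKM in WT ileum and 95.7 FPKM in WT colon. *Cubn* and *Amn* form the cobalamin receptor. *Cubn* had 2.83 FPKM in WT ileum and 0.438 FPKM in WT colon, and *Amn* 35.3 FPKM in WT ileum and 5.74 FPKM in WT colon, with log2 differences of 2.77 and 2.70. The bile acid sensor *Nr1h4* (0.66) and the cobalamin carrier *Tcn2* (0.48) were less than 2-fold apart.

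Paneth cell genes had the highest median of the lists with at least 3 genes, a log2 difference of 6.44: 6 of 8 were at least 4-fold higher in WT ileum and 0 were lower. *Defa24* (chr8:21734494-21735471) had 719 FPKM in WT ileum and *Defa20* (chr8:21509258-21510237) 109.9 FPKM, against 1.61 and 0.224 FPKM in WT colon. *Itln1*, the lectin intelectin, had 83.9 FPKM in WT ileum and 1.40 FPKM in WT colon, and the phospholipase gene *Pla2g2a* 17.3 FPKM in WT ileum and 2.97 FPKM in WT colon. *Ang4*, an antimicrobial ribonuclease, had a log2 difference of 1.98, and *Nupr1*, a stress-response factor, one of -1.85. A further 11 members of the list were in the ileum table alone. The defensin genes are near-identical copies, so the share of reads given to each is uncertain.

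The promoters of *Mmp7* and *Itln1* are printed because 3 of the 6 Paneth cell promoters at hand hold the motif TTTATNG of CDX factors, the master factors of intestinal identity, where 6.96% of 9193 joined genes with a RefSeq promoter hold it. The CDX motif was not particular to this list. Among the other gene lists searched, its share ran from 0 of 4 promoters (MHC class II) to 6 of 18 (fat absorption). It was also in 11.7% of promoters of genes at least 4-fold lower in WT ileum and in 11.3% of all 27025 RefSeq promoters. The TATA box TATAAA was in 2 of the 6 Paneth cell promoters, against 7.13% of the joined genes and 14.2% of all RefSeq promoters. In *Itln1* the CDX match begins at -30 relative to the gene start. Which factor binds these matches was not tested. Capitals mark the CDX motif on either strand. *Mmp7* is at chr9:7691840-7692139 (plus strand) and *Itln1* at chr1:171535245-171535544 (minus strand), both in GRCm38.p6.
Mmp7: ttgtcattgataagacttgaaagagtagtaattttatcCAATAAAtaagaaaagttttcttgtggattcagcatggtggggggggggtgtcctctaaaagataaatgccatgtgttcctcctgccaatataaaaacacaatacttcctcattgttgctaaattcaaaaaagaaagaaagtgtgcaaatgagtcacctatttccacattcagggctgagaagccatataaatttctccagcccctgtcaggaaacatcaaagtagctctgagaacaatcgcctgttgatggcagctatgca
Itln1: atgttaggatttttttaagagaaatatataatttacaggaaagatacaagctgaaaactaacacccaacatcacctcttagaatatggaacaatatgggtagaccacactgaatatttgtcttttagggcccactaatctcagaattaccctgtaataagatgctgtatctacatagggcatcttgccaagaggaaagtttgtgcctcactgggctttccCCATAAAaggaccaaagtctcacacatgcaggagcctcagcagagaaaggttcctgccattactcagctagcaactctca

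The regenerating islet-derived lectins, which kill bacteria at the mucosa, were the most abundant messages of the WT ileum. *Reg3b* (chr6:78370657-78373466) had 27175 FPKM in WT ileum and 208 FPKM in WT colon (138-fold), and *Reg3g* (chr6:78466269-78468872) 13777 FPKM in WT ileum and 74.5 FPKM in WT colon (195-fold). The paralog *Reg4* had 272 FPKM in WT ileum and 276 FPKM in WT colon. Of 30 genes of mucosal antimicrobial and oxidant defence, 10 were at least 4-fold higher in WT ileum and 2 at least 4-fold lower, but the median log2 difference was 0.31. *Ccl25*, the chemokine that draws lymphocytes to the small bowel, had 319.6 FPKM in WT ileum and 5.94 FPKM in WT colon. *Slpi*, a secreted protease inhibitor, had 29.9 FPKM in WT ileum and 1.37 FPKM in WT colon, and *Lcn2*, which withholds iron from bacteria, 2.25 FPKM in WT ileum and 0.188 FPKM in WT colon. *Pigr*, the carrier of immunoglobulin A across the epithelium, had 1722 FPKM in WT ileum and 1698 FPKM in WT colon.

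MHC class II genes, which present peptide to CD4+ T cells, stood apart in 1 direction: 7 of 7 were at least 4-fold higher in WT ileum, and their log2 differences lay between 2.54 and 3.58. *Cd74*, the invariant chain, had 1218 FPKM in WT ileum and 149 FPKM in WT colon, in a row shared with a microRNA gene. *H2-Ab1* and *H2-Aa*, the chains of the I-A molecule, had 296 and 232 FPKM in WT ileum, against 41.1 and 35.5 FPKM in WT colon. *H2-Eb1* had 125 FPKM in WT ileum and 11.1 FPKM in WT colon. *Ciita*, the master switch of these genes, had 5.06 FPKM in WT ileum and 0.758 FPKM in WT colon, and the peptide-loading genes *H2-DMa* and *H2-DMb1* had log2 differences of 2.54 and 2.72. B cell markers were higher on the same side. *Cd79a* had 3.25 FPKM and *Mzb1* 1.34 FPKM in WT ileum and neither has a row of its own in the colon table. *Igj*, the joining chain of secreted antibody, had 8.52 FPKM in WT ileum and 0.376 FPKM in WT colon. Of 11 B and plasma cell markers 8 were listed in the ileum table alone, and the 2 compared summed to 9.70 FPKM in WT ileum and 1.05 FPKM in WT colon. Myeloid genes were partly on that side too. *Itgam*, an integrin chain of myeloid cells, had 19.6 FPKM in WT ileum and 1.0 FPKM in WT colon, and *Mrc1*, a macrophage receptor, 1.19 FPKM in WT ileum and 0.289 FPKM in WT colon, while *Tyrobp*, a signalling adaptor of these cells, was level at -0.02. The 9 myeloid genes listed in both tables summed to 50.5 FPKM in WT ileum and 40.9 FPKM in WT colon. *Itgam* alone carried this excess, and the sum of the other genes was lower in WT ileum. The part of B cells and myeloid cells in the MHC class II difference was not tested.

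Interferon-stimulated genes stood on the other side. At least 4-fold lower in WT ileum were 17 of 40 and higher were 0, with a median log2 difference of -1.78. At the 2-fold threshold 28 of 40 were lower, where 11.0% of all genes were. *Rsad2* (viperin) had 0.384 FPKM in WT ileum and 7.62 FPKM in WT colon, *Mx1*, an antiviral GTPase, 0.188 FPKM in WT ileum and 3.18 FPKM in WT colon, and *Trim30a* 0.511 FPKM in WT ileum and 7.84 FPKM in WT colon. *Ifi27l2a* had 2.83 FPKM in WT ileum and 26.9 FPKM in WT colon. *Ifi44* and *Ifit2* had log2 differences of -3.31 and -3.27. The better expressed *Isg15* and *Irf7* lie outside the rule for named genes and were chosen after their values were seen. *Isg15*, a ubiquitin-like modifier, had 8.88 FPKM in WT ileum and 65.3 FPKM in WT colon, and *Irf7*, the factor that amplifies the response, 29.7 FPKM in WT ileum and 135 FPKM in WT colon. Above 0 were 3 of the 40 genes, among them *Tgtp1* (0.17) and *Tgtp2* (0.30), near-identical copies under 1 FPKM in both tissues that were named after their values were seen. The genes *Irgm1* and *Dtx3l* were nearly level, at -0.18 and -0.16. *Slfn4*, 89.3-fold lower in WT ileum, also belongs to a family that interferon induces.

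**Figure D3:**
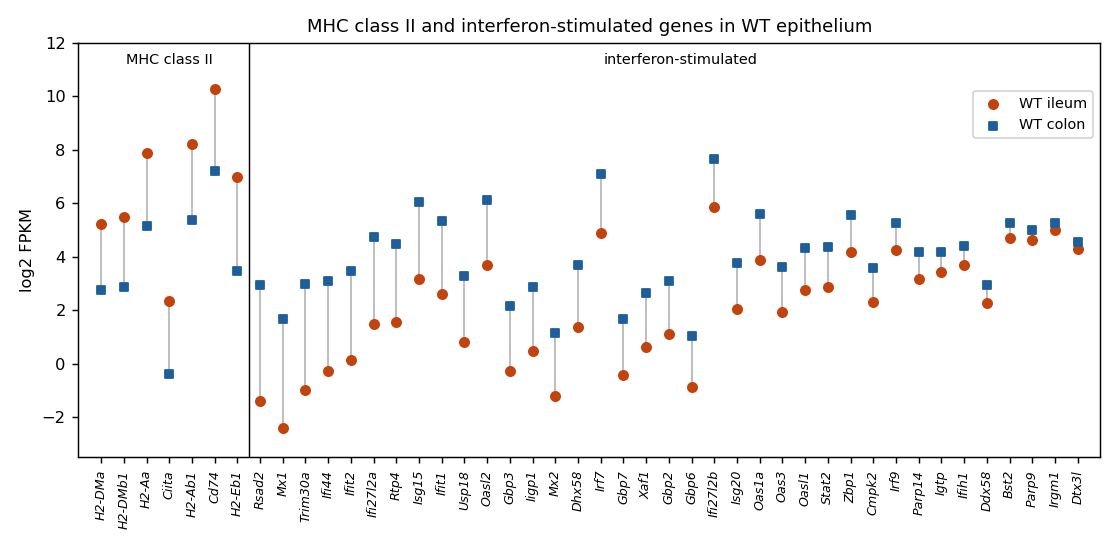
Levels in WT ileum (red circles) and WT colon (blue squares) of MHC class II genes and of 37 interferon-stimulated genes with at least 1 FPKM in either tissue (vertical axis, log2 FPKM). All 7 MHC class II genes are higher in WT ileum, and the interferon-stimulated genes shown are each lower in WT ileum, from *Rsad2* at -4.23 to *Dtx3l* at -0.16; 1 further member, which is not lower in WT ileum, is not reported here and is left out of the plot.

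Promoters of these genes share a short motif, the interferon-stimulated response element, searched on both strands as GAAA, any 2 bases and GAAA again. It is in 17 of the 26 interferon-stimulated promoters at hand (65.4%), in 22 of 256 promoters of genes at least 4-fold lower in WT ileum (8.59%), in 4 of 160 promoters of genes at least 4-fold higher (2.50%) and in 2.95% of the 9193 joined genes with a promoter. The 256 promoters include those of interferon-stimulated genes, of which 17 of 40 were at least 4-fold lower. The 2 shares are thus not separate, and the share without that list was not counted. The promoters of 4 members that were at least 4-fold lower in WT ileum are shown to let the element be read in them, with capitals for each match: *Isg15* (chr4:156200769-156201068, minus strand), *Ifit1* (chr19:34640639-34640938, plus strand), *Rsad2* (chr12:26456403-26456702, minus strand) and *Trim30a* (chr7:104465144-104465443, minus strand), all from RefSeq in GRCm38.p6.
Isg15: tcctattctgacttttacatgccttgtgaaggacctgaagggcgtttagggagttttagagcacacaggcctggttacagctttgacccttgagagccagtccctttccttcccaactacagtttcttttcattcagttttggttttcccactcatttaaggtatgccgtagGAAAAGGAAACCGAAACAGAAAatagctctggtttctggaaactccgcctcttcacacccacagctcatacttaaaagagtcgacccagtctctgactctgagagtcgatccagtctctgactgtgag
Ifit1: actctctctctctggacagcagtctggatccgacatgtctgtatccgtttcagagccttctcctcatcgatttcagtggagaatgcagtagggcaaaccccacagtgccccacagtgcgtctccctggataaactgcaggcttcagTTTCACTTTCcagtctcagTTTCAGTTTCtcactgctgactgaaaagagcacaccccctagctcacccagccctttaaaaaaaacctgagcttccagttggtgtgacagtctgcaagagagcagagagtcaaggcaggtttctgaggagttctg
Rsad2: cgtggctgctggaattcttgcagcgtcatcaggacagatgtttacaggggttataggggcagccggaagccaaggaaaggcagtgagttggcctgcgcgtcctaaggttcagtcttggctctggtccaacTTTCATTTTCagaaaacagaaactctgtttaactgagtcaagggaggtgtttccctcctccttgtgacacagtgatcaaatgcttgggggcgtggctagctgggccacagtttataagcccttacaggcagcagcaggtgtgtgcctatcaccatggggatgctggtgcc
Trim30a: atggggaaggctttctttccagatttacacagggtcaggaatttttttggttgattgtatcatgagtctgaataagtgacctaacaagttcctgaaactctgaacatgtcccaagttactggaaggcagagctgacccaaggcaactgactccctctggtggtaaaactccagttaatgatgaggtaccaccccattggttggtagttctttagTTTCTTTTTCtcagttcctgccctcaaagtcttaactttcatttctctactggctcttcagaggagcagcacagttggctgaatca
In *Isg15* 3 matches overlap within 22 bases, the first 78 bases before the gene start, and in *Ifit1* the 2 matches lie 104 and 85 bases before it. A match is a description of the letters and not of binding.

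Genes of colonic transport stood on both sides. Of 32 genes of ion, water and bicarbonate transport, 4 were at least 4-fold lower and 2 at least 4-fold higher in WT ileum. The shares of all genes were 3.14% and 1.78%. The median log2 difference of the list was -0.55. At least 2-fold lower were 13 of 32, where 11.0% of all genes were. *Slc9a3*, the sodium-proton exchanger of the brush border, had 5.31 FPKM in WT ileum and 63.6 FPKM in WT colon. *Aqp4*, a water channel, had 23.9 FPKM in WT ileum and 201 FPKM in WT colon, and *Scnn1a*, a subunit of the epithelial sodium channel, 7.73 FPKM in WT ileum and 35.3 FPKM in WT colon. *Best2*, a bicarbonate channel of goblet cells, had 0.480 FPKM in WT ileum and 5.82 FPKM in WT colon. The 2 higher genes were *Slc26a6*, an anion exchanger (20.5 FPKM in WT ileum, 0.50 FPKM in WT colon), and *Guca2b*, which codes for uroguanylin (145 FPKM in WT ileum, 36.3 FPKM in WT colon). The chloride uptake carrier *Slc12a2* (0.12) and *Fxyd3* (0.11) were level. Colonic *Atp12a*, a potassium pump, and *Fxyd4*, a regulator of the sodium pump, had 46.9 and 44.9 FPKM in WT colon and no row in the ileum table.

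Of the surface and defence genes of the large bowel, *Mptx1* among them, 2 of 14 were at least 4-fold lower in WT ileum and 0 higher, with a median log2 difference of -0.70. At least 2-fold lower were 5 of 14, where 11.0% of all genes were. *Lypd8*, which keeps flagellated bacteria from the surface, had 4096 FPKM in WT ileum and 9810 FPKM in WT colon. *Saa1*, a serum amyloid, had 117 FPKM in WT ileum and 596 FPKM in WT colon. *Gsdmc* stands in a row of several genes in the colon table and was not compared.

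Goblet cell genes leaned to the WT ileum in a few secreted products. Of 23 genes, 2 were at least 4-fold higher and 0 lower, where 1.78% and 3.14% of all genes were. At least 2-fold higher were 7 and lower 3, where 6.29% and 11.0% of all genes were. The median log2 difference was 0.52, and 0.10 when centred on ribosomal protein genes. *Tff3*, the trefoil factor of mucus, had 2574 FPKM in WT ileum and 347 FPKM in WT colon, and *Fcgbp*, a mucus protein, 165 FPKM in WT ileum and 39.9 FPKM in WT colon. *Spink4* and *Zg16* had log2 differences of 1.49 and 1.70, and the kallikrein gene *Klk1* one of -1.87. The membrane mucin *Muc13* was level, at 709 FPKM in WT ileum and 765 FPKM in WT colon.

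Of 35 genes listed for building and capping mucin-type O-glycans, 9 were at least 4-fold lower in WT ileum and 1 higher. The shares of all genes were 3.14% and 1.78%. The median log2 difference was nevertheless -0.23. *B3galt5*, which adds galactose, had 4.11 FPKM in WT ileum and 88.0 FPKM in WT colon. The sialyltransferase genes *St3gal3*, *St6galnac4* (in a row shared with *St6galnac6*) and *St3gal6* had 1.77, 25.6 and 7.46 FPKM in WT ileum, against 37.3, 349.7 and 72.0 FPKM in WT colon. *B3gnt7* and *B3gnt5*, which extend chains with N-acetylglucosamine, had 17.5 and 2.0 FPKM in WT ileum, against 209 and 19.6 FPKM in WT colon. Which kind of glycan each listed enzyme acts on in these cells was not examined. The genes *B4galnt2*, which makes the Sda blood group, and *B4galt1* both differed by -0.01.

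Endocrine cells differed by hormone. Besides *Insl5*, *Tph1*, the first enzyme of serotonin synthesis, had 1.27 FPKM in WT ileum and 13.1 FPKM in WT colon. *Ghrl*, which codes for ghrelin, had 6.82 FPKM in WT ileum and 0.637 FPKM in WT colon, and *Cck*, which codes for cholecystokinin, 15.2 FPKM in WT ileum and 4.11 FPKM in WT colon. These made 1 of 23 genes at least 4-fold higher and 2 at least 4-fold lower in WT ileum. The shares of all genes were 1.78% and 3.14%. The progenitor factor *Neurog3* and the granin *Scg2* both had a log2 difference of 1.21, and the serotonin cell factor *Fev* and the granin *Scg3* of 0.11 and -0.32. Tuft cell genes were scarce: the 10 compared summed to 26.2 FPKM in WT ileum and 8.65 FPKM in WT colon, 3 of them at least 4-fold higher in WT ileum (*Rgs13*, *Plcg2* and *Spib*) and 1 lower (*Hpgds*). Their median log2 difference of 1.40 fell to 0.65 on the log2(FPKM + 1) scale. The part of other cells, such as the B cells above, in these genes was not tested.

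Genes of the cell cycle were higher in WT ileum throughout the list but by small steps. All 39 had a log2 difference above 0, between 0.31 for *Ccnd2* and 2.17 for *Tyms*, with a median of 1.03; centred on ribosomal protein genes, *Ccnd2* and *Cdk2* fall below 0. At least 2-fold higher were 21, where 6.29% of all genes were, and *Tyms*, the thymidylate synthase, was the 1 gene at least 4-fold higher (43.4 FPKM in WT ileum, 10.2 FPKM in WT colon). *Ccnd1*, a cyclin of the G1 phase, had 109.9 FPKM in WT ileum and 35.8 FPKM in WT colon, in a row shared with a microRNA gene, and *Ube2c* and *Cdc20*, which drive exit from mitosis, had log2 differences of 1.35 and 1.40. *Cdk2* stood at 15.2 FPKM in WT ileum and 12.2 FPKM in WT colon. *Mki67* was in the colon table alone, with 26.5 FPKM. Genes of stem cells and Wnt targets showed no such shift, with a median log2 difference of 0.00 over 20 genes and 2 at least 4-fold higher. These 2 were *Igfbp4* (20.7 FPKM in WT ileum, 0.993 FPKM in WT colon) and *Msi1* (2.46 FPKM in WT ileum, 0.418 FPKM in WT colon). *Smoc2* had a log2 difference of 1.44 and *Sox9* of -1.19, while the receptor gene *Lgr4* and its antagonist *Lrig1* were level at 0.02 and -0.01. *Olfm4*, a stem cell marker of the small bowel, had 380.0 FPKM in WT ileum and no row in the colon table.

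The factors that pattern the bowel split into 3 kinds. Of 32 regional and epithelial transcription factors, 3 were at least 4-fold higher in WT ileum and 3 lower. The shares of all genes were 1.78% and 3.14%. The higher 3 were *Gata5*, *Pitx1* and *Maf*. *Gata5* had 19.7 FPKM in WT ileum and 0.212 FPKM in WT colon, *Pitx1* 12.9 FPKM in WT ileum and 0.387 FPKM in WT colon, and *Maf* 40.2 FPKM in WT ileum and 2.66 FPKM in WT colon. At least 4-fold lower were *Foxd2* (4.47 FPKM in WT ileum, 33.1 FPKM in WT colon), *Foxa2* (1.62 FPKM in WT ileum, 9.32 FPKM in WT colon) and *Klf4*, a factor of differentiated surface and goblet cells (55.7 FPKM in WT ileum, 256.0 FPKM in WT colon). *Nr5a2* and *Esrra* were level, at -0.02 and 0.04, and the master factors *Cdx2* and *Hnf4a*, named after their values were seen, at 0.04 and 0.16.

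Of the Hox genes, which mark position along the body axis, 9 had a row of the same name in both tables, of which those of *Hoxa7*, *Hoxb3* and *Hoxb9* also hold neighbouring genes. *Hoxa7* had 3.01 FPKM in WT ileum and 38.1 FPKM in WT colon, and *Hoxd8* 0.145 FPKM in WT ileum and 1.01 FPKM in WT colon, log2 differences of -3.58 and -2.72. *Hoxb4* (-1.61), *Hoxa4* (-1.22), *Hoxb2* (-0.69), *Hoxb3* (-0.62) and *Hoxb9* (-0.26) were lower in WT ileum by smaller steps, and *Hoxb7* (0.50) and *Hoxb8* (0.41) were higher. *Hoxb9* was the most abundant of the 9, at 64.4 FPKM in WT ileum and 81.6 FPKM in WT colon. The colon table alone listed 10 further Hox genes, and 5 stood in rows that join different genes in the 2 tables.

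Junction and microvillus genes were mostly level. At least 4-fold lower in WT ileum were 3 of 21 tight junction genes, where 3.14% of all genes were. These 3 were *Cldn8*, a sealing claudin (13.0 FPKM in WT ileum, 76.1 FPKM in WT colon), *Cgnl1* (0.966 FPKM in WT ileum, 6.45 FPKM in WT colon) and *Cldn14*, under 2 FPKM in both. The pore-forming *Cldn15* and *Cldn2* had log2 differences of 1.41 and 1.19, with 272 and 159 FPKM in WT ileum, against 108 and 73.5 FPKM in WT colon. *Cldn23* and *Pard3* were level at -0.03 and 0.03. Among 19 genes of the microvillus, 1 was at least 4-fold apart: the scaffold gene *Pdzk1*, with 10.1 FPKM in WT ileum and 2.19 FPKM in WT colon. Villin and the other 17 lay within 2-fold, between -0.66 for *Eps8l2* and 0.65 for *Baiap2l2*.

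Cytochrome P450 genes at least 4-fold lower in WT ileum were 4 of 24, where 3.14% of all genes were. All 4 belong to the Cyp2d cluster of chromosome 15. *Cyp2d34* (chr15:82615965-82620946) had 1.25 FPKM in WT ileum and 71.5 FPKM in WT colon, *Cyp2d10* (chr15:82402846-82407195) 0.209 FPKM in WT ileum and 10.6 FPKM in WT colon, *Cyp2d9* 0.0791 FPKM in WT ileum and 5.10 FPKM in WT colon, and *Cyp2d22* 1.29 FPKM in WT ileum and 9.06 FPKM in WT colon. Their sequences are alike, so reads may have been shared between copies. *Cyp2u1* was the 1 gene at least 4-fold higher (3.18 FPKM in WT ileum, 0.276 FPKM in WT colon), and *Cyp4f16* and *Cyp2j9* were level at 0.13 and 0.14. Of 41 conjugation enzymes and carboxylesterases, 0 were at least 4-fold apart in either direction. At least 2-fold lower in WT ileum were 9 and higher 1, where 11.0% and 6.29% of all genes were. The sulfotransferase gene *Sult1c2* (-1.92) and the glutathione transferase genes *Gstt1* (-1.77) and *Gstm1* (-1.71) were the lowest.

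Genes of lipid burning leaned to the WT colon. Among 23 genes of fatty acid oxidation and ketogenesis, 1 was at least 4-fold lower in WT ileum: *Pdk4*, which holds pyruvate back from the mitochondrion, with 0.578 FPKM in WT ileum and 4.59 FPKM in WT colon. At least 2-fold lower were 5 of 23 and higher 0, where 11.0% and 6.29% of all genes were, and the median log2 difference was -0.49. *Ppargc1a*, a coactivator of mitochondrial genes, had one of -1.68, and *Slc25a20*, the carnitine carrier, of -1.03. Of 23 genes of cholesterol synthesis, 1 was at least 4-fold higher in WT ileum and 0 lower, with a median log2 difference of 0.32. *Dhcr7*, which makes the last step to cholesterol, had a log2 difference of -0.48 and *Insig1*, which restrains the synthesis, one of 0.77. The phosphate carrier *Slc34a2* was the 1 of 19 genes of mineral handling at least 4-fold apart, with 18 FPKM in WT ileum and 4.53 FPKM in WT colon, while the iron exporter *Slc40a1* had a log2 difference of -0.85. The 77 subunits of oxidative phosphorylation had a median of 0.14 and 0 at least 4-fold apart, and the same count of 0 held for the 81 ribosomal protein genes.

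**Figure D4:**
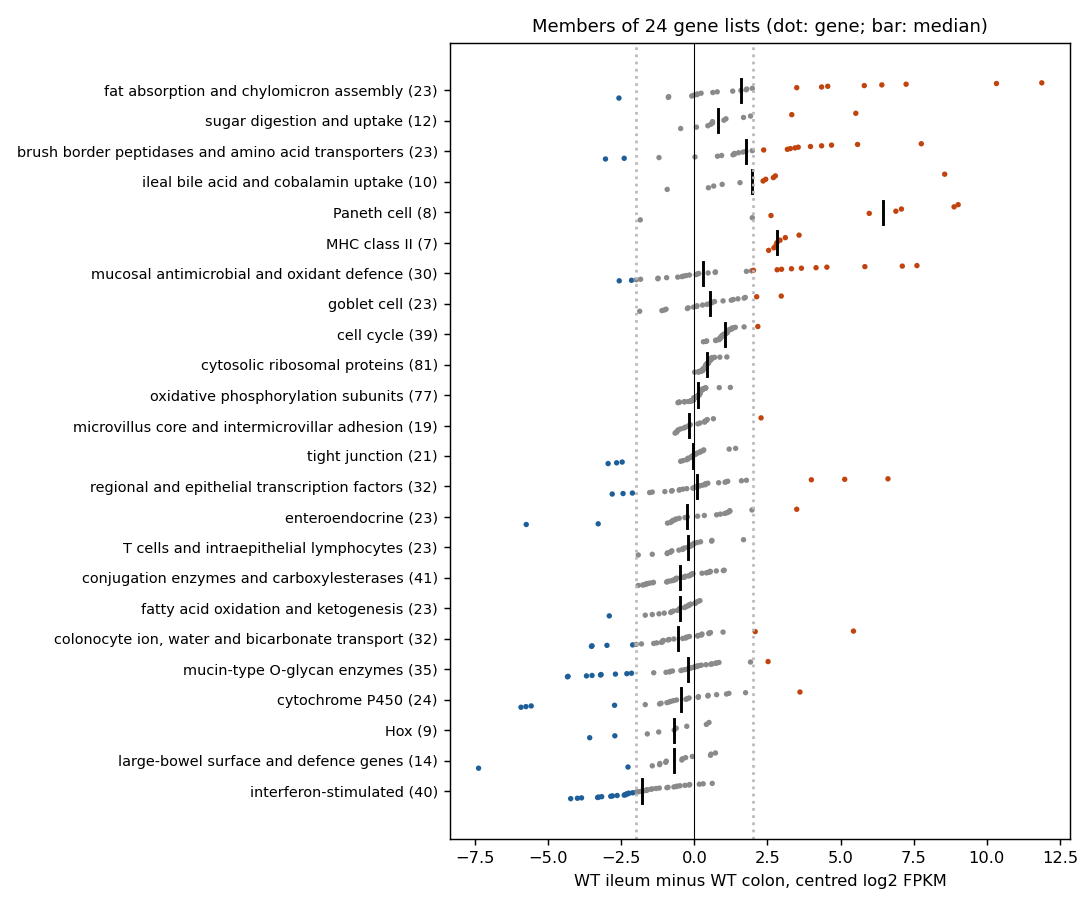
Log2 differences of WT ileum minus WT colon (horizontal axis) for the members of 24 gene lists, 1 dot per gene, with the number of genes in brackets and a bar at the median; dotted lines mark 4-fold. Medians run from 6.44 for Paneth cell genes to -1.78 for interferon-stimulated genes, and the 39 cell cycle genes all lie right of 0.

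Markers of other cells were found at various levels. For T cells, *Cd3e* had 3.92 FPKM in WT ileum and 4.38 FPKM in WT colon, and *Cd8a* 1.35 FPKM in WT ileum and 1.80 FPKM in WT colon. *Itgae*, *Gzmb* and *Ccl5* had 1.02, 9.32 and 42.8 FPKM in WT ileum, against 1.27, 6.54 and 29.9 FPKM in WT colon. Of 23 genes of T cells and intraepithelial lymphocytes 0 were at least 4-fold apart, with a median log2 difference of -0.23. These 23 genes summed to 122 FPKM in WT ileum and 89.9 FPKM in WT colon. *Gzma* was the furthest up, at 1.68, and *Klrd1* the furthest down, at -1.92. The macrophage genes *Csf1r* and *Cd68* were not compared. Of 7 myeloid genes compared, 2 were at least 4-fold higher in WT ileum and 0 lower. *Lyz2* had 1.39 FPKM in WT ileum and 0.901 FPKM in WT colon. Of 7 connective tissue, muscle and vessel genes compared, which summed to 44.9 FPKM in WT ileum and 14.3 FPKM in WT colon, 3 were at least 4-fold higher in WT ileum: *Dcn* had 20.8 FPKM in WT ileum and 1.19 FPKM in WT colon, *Sparc* 6.87 FPKM in WT ileum and 0.406 FPKM in WT colon, and *Col3a1* 1.93 FPKM in WT ileum and 0.287 FPKM in WT colon. *Col1a1* had 1.21 FPKM in WT ileum and no row in the colon table, *Pecam1* of endothelium had under 1 FPKM in both, and *Myh11* and *Acta2* of muscle were not compared. The row of the haemoglobin genes *Hba-a1* and *Hba-a2* had 0.889 FPKM in WT ileum and 3.94 FPKM in WT colon. *Cela1*, a pancreatic elastase, had 21.9 FPKM in WT ileum and 217 FPKM in WT colon, while *Pnlip* was listed at 0 in WT ileum and *Ctrb1* was not compared. *S100b* of glia was not compared either. The part of these cells in any difference above was not tested.

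The same contrast in IEC-OGT KO mice was set beside the WT contrast to show where WT differs. There 445 genes (3.75%) were at least 4-fold higher and 505 (4.26%) at least 4-fold lower in KO ileum, together 950 (8.01%), against 583 in WT. The difference between the contrasts has no test here. Digestive genes separated the KO tissues more: 17 of 23 genes of fat absorption and 10 of 12 of sugar uptake were at least 4-fold higher in KO ileum than in KO colon, against 8 and 2 in WT, and their medians were 2.91 and 3.55 in KO, against 1.59 and 0.82 in WT. *Sis* had 1209 FPKM in KO ileum and 11.8 FPKM in KO colon, and *Fabp2* 7231 FPKM in KO ileum and 1046 FPKM in KO colon. Of the surface and defence genes of the large bowel, 8 of 13 were at least 4-fold lower in KO ileum than in KO colon, with a median of -3.42, against -0.70 in WT. T cell genes, level in WT, were at least 4-fold higher in KO ileum in 19 of 23 (median 3.14). Interferon-stimulated genes had a median of 0.40 in KO, against -1.78 in WT, and goblet cell genes of -1.50 in KO, against 0.52 in WT. MHC class II genes were on the same side in both, 7 of 7 at least 4-fold higher in KO ileum (median 5.31), and so were Paneth cell genes (6.38 in KO, 6.44 in WT). The Paneth cell medians cover 8 of 27 listed members, and single members moved in both directions. Log2 differences were 11.27 in KO and 9.02 in WT for *Defa20*, and 9.52 in KO and 6.89 in WT for *Lyz1*. For *Mmp7* they were 5.34 in KO and 7.08 in WT.

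**Figure D5:**
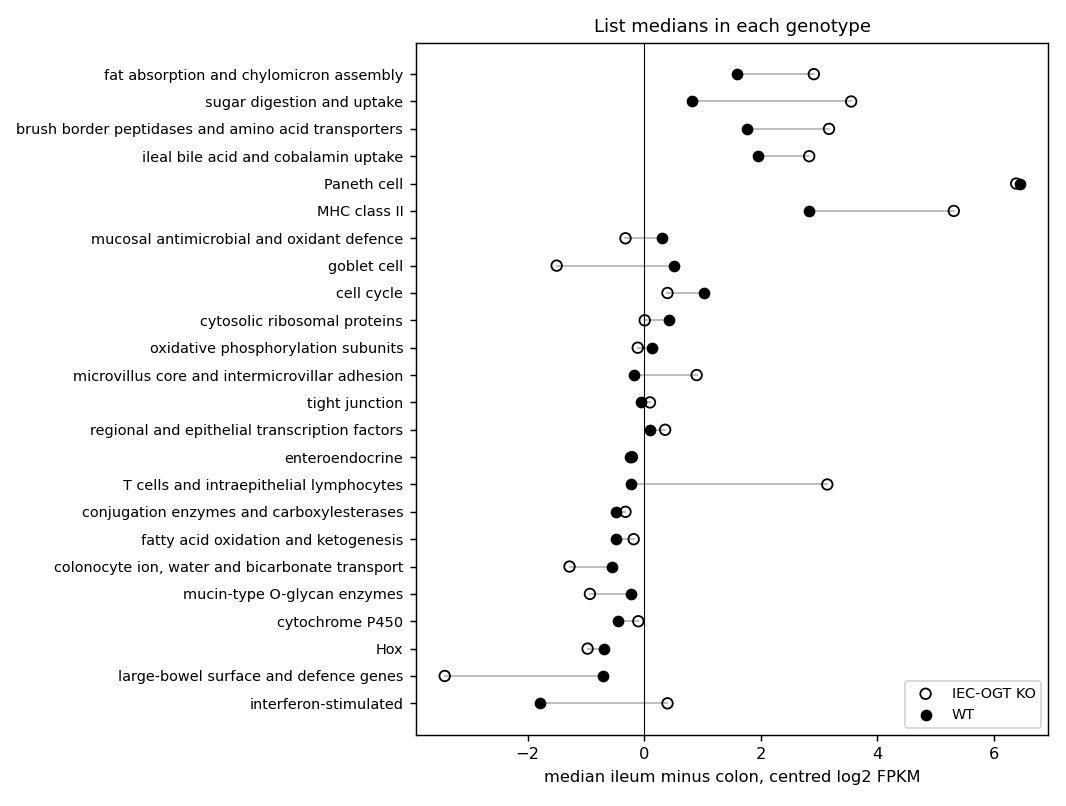
Median log2 difference of ileum minus colon (horizontal axis) of 24 gene lists in IEC-OGT KO (open circles) and WT (filled circles), 1 value per genotype and list. The medians of T cell, sugar uptake, large-bowel surface, MHC class II and interferon-stimulated genes lie furthest apart between the genotypes among the lists plotted, while those of Paneth cell genes lie at 6.38 in KO and 6.44 in WT.

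The enzymes of the sugar modification that the study deals with were both lower in WT ileum by less than 4-fold. *Ogt* had 10.5 FPKM in WT ileum and 32.4 FPKM in WT colon, a log2 difference of -1.55. *Mgea5*, which codes for the enzyme that removes the sugar, had 22.0 FPKM in WT ileum and 35.8 FPKM in WT colon, a log2 difference of -0.62.

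Motifs of gut factors were also counted over the whole tables. The GATA motif AGATAA was in 13.1% of 160 promoters of genes at least 4-fold higher in WT ileum, 12.1% of 256 promoters of genes at least 4-fold lower and 6.52% of all joined genes with a promoter. The CDX motif TTTATNG was in 14.4% of the promoters higher in WT ileum, 11.7% of those lower and 6.96% of all, and the TATA box TATAAA, whose matches overlap a CDX match in 1024 of the 3052 RefSeq promoters that hold one, in 16.3% of those higher, 11.3% of those lower and 7.13% of all. The HNF4 motif CAAAGTCCA was in 3 of the 160 promoters higher in WT ileum (1.88%), 1 of the 256 lower (0.391%) and 0.413% of all. Over all 27025 RefSeq promoters, the GATA motif was in 11.4%, the CDX motif in 11.3%, the TATA box in 14.2% and the HNF4 motif in 0.477%. Any excess of the 4-fold sets thus depends on the background chosen. All motifs were searched on both strands.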

How the data were processed

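Epithelial RNA-seq of WT ileum (2 libraries) and WT colon (3 libraries) was used, with IEC-OGT KO beside it. The authors trimmed reads with Trimmomatic, aligned them with TopHat (version 1.0.0 in the submitters' processing notes) and Bowtie to mm10 and quantified them with Cufflinks. They deposited 2 tables, 1 per tissue, with 1 log2 FPKM value per row and genotype and -10 for 0 FPKM; depth, counts and values per library are not part of them. The tables' columns of log2 ratio, q value and significance hold the authors' own comparison of genotypes and were not used.

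From these values, FPKM were summarised by gene name (Python 3.11.15, pandas 2.3.3, NumPy 2.4.6), and the tables, with 16521 rows for ileum and 18122 for colon, were joined on names. Rows without a name, 3505 in the ileum table and 4815 in the colon table, were left out. A total of 11866 names joined, 809 were in the ileum table alone and 965 in the colon table alone, among them 259 and 202 with a gene inside a differently named row of the other table. The centred difference, the 4-fold threshold and the medians of 35 gene lists are descriptions. Their code was tested on simulated data. Named genes were the 15 most apart on each side with at least 10 FPKM, up to 6 most and 2 least apart per list with at least 1 FPKM, the 8 highest of those at 0 in 1 tissue, the cell type markers, the joined Hox genes, *Ogt* and *Mgea5*. Members and lists were chosen with earlier results of these data known. Alternatives were another centring, a pseudocount of 1, filters on low FPKM, other thresholds and other treatments of shared rows. Positions came from GENCODE M21, promoters from RefSeq (GRCm38.p6), searched for 5 motifs. Some genes that the rule names, and some members of the lists, are not reported here.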

Additional observations from a re-analysis of the deposited data

How the results depend on the processing

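The counts at least 4-fold apart in WT, 211 higher in ileum and 372 higher in colon, depended on the threshold and on low levels. They were 745 and 1307 at 2-fold and 101 and 125 at 8-fold, 121 and 156 on the log2(FPKM + 1) scale, and 129 and 222 with at least 5 FPKM in either tissue. With at least 10 FPKM, a filter chosen after seeing the data, they were 102 and 157. Centring on ribosomal protein genes gave 614 higher in colon. In IEC-OGT KO, where all alternatives were added after seeing the data, 445 and 505 became 1111 and 1426 at 2-fold, 202 and 227 at 8-fold, 272 and 246 on the log2(FPKM + 1) scale and 240 and 240 with at least 10 FPKM, and 320 were higher in colon with at least 5 FPKM. Of 308 recomputed list medians, 286 stayed within 1.5-fold of the reported median and 22 did not. The rule compares folds and not the log2 values, so a median near 0 could change sign and still count as having stayed. Centred on ribosomal protein genes, the median of cholesterol synthesis went from 0.32 to -0.10 and that of mucosal defence from 0.31 to -0.12 in this way. Among the 22, with at least 5 FPKM the median was 0.98 for fat absorption and 1.20 for bile acid uptake. It changed sign to 0.70 for enteroendocrine genes and 0.54 for T cell genes. No paired analysis was possible because the tables hold 1 value per genotype, and for the same reason no library could be left out. Depth, and so the precision of low values, is unknown.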

Other observations

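A few further gene groups, all chosen after their values were seen, stood apart between the WT tissues, and they are given as values. Of 11 heat shock and chaperone genes, 6 were at least 2-fold higher in WT ileum, where 6.29% of all genes were, and the median log2 difference was 1.23 in WT. *Hsph1*, which helps the HSP70 chaperones to exchange nucleotide, had 66.3 FPKM in WT ileum and 15.2 FPKM in WT colon. *Hsp90aa1* and *Hspa5*, chaperones of the cytosol and of the endoplasmic reticulum, had 309 and 478 FPKM in WT ileum, against 103 and 159 FPKM in WT colon. The list median in IEC-OGT KO was 0.60. The inducible genes *Hspa1a* and *Hspa1b* were not compared, since the colon table joins them in 1 row, and they stood the other way: 0.470 and 2.62 FPKM in WT ileum, against 12.3 FPKM for the joint row in WT colon.

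Immediate early genes, which cells switch on within minutes of a stimulus, stood lower in WT ileum: 9 of 18 by at least 2-fold, where 11.0% of all genes were, with a median log2 difference of -1.02. *Jun* had 7.26 FPKM in WT ileum and 24.9 FPKM in WT colon, and *Fos* 15.8 FPKM in WT ileum and 50.9 FPKM in WT colon. The median in IEC-OGT KO was -0.32. Of 15 genes of the circadian clock, 6 were at least 2-fold lower in WT ileum and 1 higher, against 11.0% and 6.29% of all genes, with a median of -0.71. *Per3*, of the repressing limb of the clock, had 0.376 FPKM in WT ileum and 3.29 FPKM in WT colon, while *Arntl*, of its activating limb, had a log2 difference of 0.14. The median in IEC-OGT KO was 0.19. The hour of collection is not given in the sources used here.

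The nuclear long RNAs *Malat1* and *Neat1* had 5.31 and 7.46 FPKM in WT ileum, against 69.6 and 158 FPKM in WT colon, and 24.9 and 58.9 FPKM in KO ileum, against 99 and 241 FPKM in KO colon. Differences also varied with transcript length. The median log2 difference of WT ileum minus WT colon was 0.21 over 581 genes whose longest transcript is under 1000 bases and -0.18 over 583 genes of at least 8000 bases. The part of RNA quality in these values was not tested.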
